A study of Mus musculus with 15 samples.

Results

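Fos, Fosb, Fosl2, Jun, Junb and Jund encode 6 subunits of the transcription factor AP-1. Their transcripts were followed in olfactory epithelium after odorant exposure. The genes were taken by symbol from the deposited table, each symbol matched 1 identifier, and they are 6 of the 57010 identifiers listed. All 6 had enough counts to be among the 19229 genes tested. The group was formed by symbol, with earlier results of these data known.

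Each library held RNA that came down with an antibody against phosphorylated ribosomal protein S6, a mark that neurons acquire when they are active. All mice were wild-type C57BL/6J males, 8 weeks of age, kept without odour for 4 h and then exposed for 90 min. Control mice had empty filter papers. Acetophenone and decanal were given to the A+D and A&D mice, octanal and cis-3-hexenol to the O+C and O&C mice, with 10 µL of each odorant. The plus sign stands for both odorants on the same paper and the ampersand for separate papers about 1 mm apart. There were 3 biological replicates in each of the 5 groups, taken here as 1 mouse per library. No group received a single odorant, and no RNA from before the precipitation was analysed here. A difference can therefore be one in transcript level, in the number of cells holding the transcript or in the S6 phosphorylation of those cells, and the design cannot tell these apart. In bulk samples such as these, fewer cells of a type and less RNA per cell cannot be told apart either.

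AP-1 binds DNA as a pair of subunits joined by a leucine zipper. Fos proteins pair only with a partner from another family, usually a Jun protein, while Jun proteins also pair with one another. Fos, Fosb and Junb are immediate early genes: calcium and kinase signals set off their transcription without new protein synthesis, and their transcripts are short-lived. Fosl2 responds more slowly in many cells, and Jund is present in most resting cells. In neurons, Fos is widely used as a marker of recent activity.

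The sequence just before the transcription start carries part of this response. The promoters of 4 genes are shown here. Fos and Fosb share a sequence there that Fosl2 and Jun lack in the same window, and Jun has another. Junb, not shown, also has the shared sequence, further from its start. Its log2 fold change against Control was -0.05 in O+C and 0.12 in O&C. Any link between these sequences and the changes was not tested. Each stretch is the 100 bases ending at the base before the start, from RefSeq on GRCm38.p6, written 5′ to 3′ on the strand of the gene. Capitals mark TGACG (the core of the cAMP response element, CRE), TGACATCA (a variant AP-1 site) and TATAAA.
Fos (chr12:85473790-85473889, + strand): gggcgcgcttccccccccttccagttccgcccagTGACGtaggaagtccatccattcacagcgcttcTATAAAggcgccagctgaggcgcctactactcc
Fosb (chr7:19310046-19310145, - strand): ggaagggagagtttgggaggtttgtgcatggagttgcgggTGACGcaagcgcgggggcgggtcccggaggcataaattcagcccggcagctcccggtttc
Fosl2 (chr5:32136372-32136471, + strand): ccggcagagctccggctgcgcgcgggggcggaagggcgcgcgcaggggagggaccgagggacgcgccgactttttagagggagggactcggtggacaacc
Jun (chr4:95052223-95052322, - strand): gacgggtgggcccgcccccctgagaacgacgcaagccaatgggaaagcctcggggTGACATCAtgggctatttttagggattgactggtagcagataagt

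All 6 genes had 1 promoter in the RefSeq table, and the 250 bases before each start were searched on both strands. TGACG lay 66 to 62 bases before the start of Fos and again 129 to 125 bases before it. It lay 60 to 56 bases before the start of Fosb and 106 to 102 bases before that of Junb. In Jun, TGACATCA lay 45 to 38 bases before the start. Of 32841 promoters of the same length, 17.8% held TGACG, 2.93% held TGACATCA and 12.4% held TATAAA. The full CRE (TGACGTCA, which contains TGACG), the AP-1 site (TGACTCA or TGAGTCA) and the CArG box were in 1.55%, 4.46% and 1.47% of promoters and in none of these 6 windows. A match is a run of letters and not a site shown to be bound. Bases beyond the 250 were not searched, so a site further from the start would be missed.

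Total counts ran from 22704193 to 25287077 per library, and the 6 genes together took 0.0417% to 0.0770% of them. Levels are in CPM, the count divided by the TMM-scaled library size. The precision differed between the genes: Fosb had 22 to 390 counts per library, Fosl2 200 to 681, Junb 832 to 1408, Fos 486 to 4507, Jun 3380 to 6779 and Jund 3598 to 7425. Jund is uncertain because its estimated count was whole in only 1 of 15 libraries, which is taken to mean that reads were shared with another gene. The library A+D 2 stood apart from the rest, with a mean log2 CPM correlation with the others of 0.958 against 0.970 to 0.978 for the other 14. O&C 1, O&C 3, A&D 1, A+D 2 and Control 1 held only 0.606 to 3.41 CPM of odorant binding protein transcripts (Obp1a, Obp1b, Obp2a and Obp2b summed), made by nasal glands, and the other libraries 221 to 1316. Omp, the defining transcript of mature olfactory sensory neurons, was at 4202 to 10087 CPM, which fits the tissue label.

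Fos was highest after octanal and cis-3-hexenol and varied most within O+C. The Control libraries had 40.3, 52.7 and 26.2 CPM of Fos. In A+D the values were 20.4, 35.7 and 22.5 CPM, and in A&D they were 38.6, 48.5 and 49.0 CPM. Both acetophenone and decanal groups therefore overlapped Control. In O+C the 3 libraries had 38.1, 96.9 and 175 CPM of Fos, and in O&C they had 79.2, 69.6 and 83.4 CPM. Every O&C library was above every Control library, while O+C 1 lay inside the Control range. Of all 19229 genes, 40% were separate in this sense between O&C and Control. From high to low the group means of Fos were 103 ± 68.9 CPM for O+C, 77.4 ± 7.08 for O&C, 45.4 ± 5.88 for A&D, 39.7 ± 13.2 for Control and 26.2 ± 8.30 for A+D (SD, n = 3 each). Of the neighbours in that order, O&C and A&D did not overlap, and the other neighbours did. That step was not tested by itself.

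Fosb, the scarcest of the 6 transcripts, had the largest fold changes. Control libraries held 2.87, 1.68 and 1.94 CPM of Fosb. The A+D libraries held 0.923, 7.97 and 2.04 CPM and the A&D libraries 7.36, 6.24 and 5.02 CPM. All A&D libraries were thus above all Control libraries, whereas A+D spanned them, with A+D 1 below and A+D 2 above. Between A&D and Control 20.4% of all genes did not overlap. Fosb stood at 14.9, 9.28 and 15.2 CPM in O+C and at 13.4, 9.02 and 11.1 CPM in O&C. All 6 of these libraries were above all 9 others. The order of the Fosb means was O+C (13.1 ± 3.34 CPM), O&C (11.2 ± 2.17), A&D (6.21 ± 1.17), A+D (3.64 ± 3.79) and Control (2.16 ± 0.627; SD, n = 3 each). The step from O&C to A&D had no overlap, and each of the other steps did.

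Fosl2, a slower member of the Fos family, went another way. It was at 18.9, 20.8 and 14.7 CPM in Control, 9.73, 30.2 and 14.4 CPM in A+D, and 14.8, 10.4 and 15.03 CPM in A&D. In O+C it was at 12.8, 14.2 and 19.1 CPM and in O&C at 12.5, 8.40 and 8.90 CPM. The highest Fosl2 value of all was that of A+D 2, and the O&C libraries lay below all Control libraries. Group means of Fosl2 ran from 18.1 ± 3.13 CPM in Control to 9.94 ± 2.25 CPM in O&C (SD, n = 3 each), and every pair of neighbours in the order overlapped.

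Jun, the main partner of Fos, was much more even. Its values were 229, 222 and 195 CPM in Control, 206, 150 and 219 CPM in A+D and 187, 206 and 181 CPM in A&D. The O+C libraries had 235, 203 and 199 CPM of Jun and the O&C libraries 294, 216 and 240 CPM. No odour group was separate from Control. A+D 2 was lowest and O&C 1 highest, and the group means lay between 191 ± 36.7 CPM in A+D and 250 ± 39.7 CPM in O&C (SD, n = 3 each).

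Junb, an immediate early Jun protein that restrains the activity of Jun at many promoters, was lowest in A+D. Control had 50.1, 51.0 and 44.4 CPM of Junb, A+D 38.6, 36.8 and 35.5 CPM, and A&D 49.1, 39.6 and 44.9 CPM. The A+D libraries lay below those of Control and also below those of A&D. Of all genes, 14.9% were separate in this way between A+D and Control, and 7.12% between A+D and A&D. In O+C Junb was at 43.1, 48.3 and 48.7 CPM and in O&C at 61.0, 43.1 and 53.7 CPM, both overlapping Control.

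Jund had 221, 192 and 178 CPM in Control, 197, 159 and 206 CPM in A+D and 204, 217 and 200 CPM in A&D. The O+C libraries held 282, 223 and 205 CPM of Jund and the O&C libraries 322, 221 and 255 CPM. The means of Jund followed the order O&C (266 ± 51.4 CPM), O+C (237 ± 40.2), A&D (207 ± 8.71), Control (197 ± 22.2) and A+D (187 ± 24.7; SD, n = 3 each). Neighbours overlapped at every step, and O&C overlapped Control by the closeness of O&C 2 to Control 1.

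**Figure D1:**
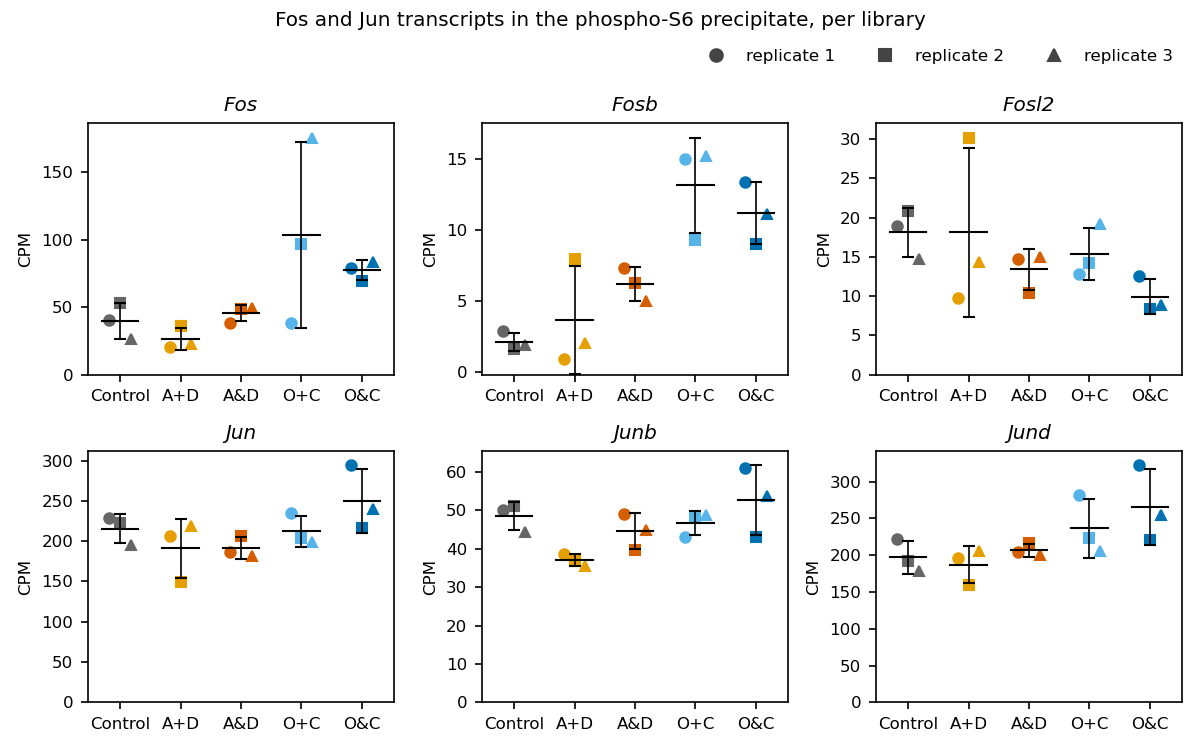
CPM of the 6 genes in each of the 15 libraries by group, with symbols for the replicate, a line at the group mean and bars of 1 SD (3 libraries each). Fosb was higher in all 6 octanal and cis-3-hexenol libraries than in the other 9, O+C 1 had far less Fos than O+C 2 and O+C 3, and A+D 2 had the highest Fosl2 and the lowest Jun.

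Per kilobase of exon, the Jun family was the more abundant in Control. Levels were divided by the merged exon length in GENCODE M21 (GRCm38), since no annotation of the build of the counts was used here. Control means were 118 CPM per kb for Jund, 67.6 for Jun, 26.8 for Junb, 18.9 for Fos, 2.77 for Fosl2 and 0.572 for Fosb. Library ranges did not overlap between Jund and Jun (107 to 133 against 61.3 to 71.8 CPM per kb). Those of Junb and Fos came close and overlapped (24.5 to 28.2 against 12.4 to 25.0 CPM per kb). In O+C, mean Fos reached 49.1 CPM per kb, above Junb at 25.8, with a range from 18.1 to 83.2 that held the whole Junb range. In O&C, Fosb at 2.95 CPM per kb was above Fosl2 at 1.52, with ranges of 2.38 to 3.53 and 1.29 to 1.92 CPM per kb that did not overlap. In Control these 2 genes stood the other way round, at 0.443 to 0.759 CPM per kb for Fosb and 2.24 to 3.18 for Fosl2.

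Each odour group was then compared with Control. Acetophenone and decanal on the same paper moved none of the 6 genes past the threshold, an adjusted p of 0.05 over all genes in edgeR's quasi-likelihood test. In that comparison 0.296% of all genes were called higher and 0.0260% lower. DESeq2 called 0 of the 6, and 235 of all genes. An unadjusted p under 0.05 was found for 2631 of all 19229 genes and for 1 of the 6. The latter was Junb, with a log2 fold change of -0.39 ± 0.12 (SE, adjusted p = 0.227 in edgeR). Fosb differed from Control by 0.74 on the log2 scale in A+D, with a 95% interval from -0.46 to 1.94. Without the library A+D 2 the Fosb difference was -0.55 (adjusted p = 0.700 in edgeR), so its sign rested on that library.

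On separate papers the same odorants also gave 0 calls among the 6 genes, with 1.00% of all genes called higher and 0.0208% lower. An unadjusted p under 0.05 was found for 1 of the 6 and for 2286 of all 19229 genes. DESeq2 called 0 of the 6, and 439 of all genes. Fosb was the nearest, with a log2 fold change of 1.52 ± 0.55 (SE; adjusted p = 0.271 in edgeR) and no overlap between the groups. Fos differed by 0.19, with an interval from -0.78 to 1.16, which still holds a rise of more than 1 on the log2 scale.

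Fosb was higher in the precipitate after octanal and cis-3-hexenol on the same paper. It was 6.06-fold higher in O+C than in Control, a log2 fold change of 2.60 ± 0.55 (SE; adjusted p = 0.0116 in edgeR), with a 95% interval from 2.68-fold to 13.7-fold. Fosb was the only call among the 6, where 5.74% of all genes were called higher and 2.35% lower. The call for Fosb was lost without Control 2 (adjusted p = 0.0573 in edgeR) and without Control 3 (0.0543), at log2 fold changes within 2.44 to 2.86 over all libraries left out in turn. Fos had a log2 fold change of 1.38 ± 0.45 (SE; adjusted p = 0.0871 in edgeR) and was called by DESeq2 (adjusted p = 0.0236). Its value leaned on single mice: without O+C 1 it was 1.78 (adjusted p = 0.00518 in edgeR), and without O+C 3 it was 0.78 (0.239). Jun and Junb differed from Control by -0.02 and -0.05 on the log2 scale, with 95% intervals from -0.31 to 0.27 and from -0.31 to 0.21.

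After octanal and cis-3-hexenol on separate papers Fosb was also higher than in Control, by 5.15-fold. The log2 fold change was 2.37 ± 0.55 (SE, adjusted p = 0.0111 in edgeR, 95% interval 2.28-fold to 11.6-fold). Fosb was 1 call of 6, with 9.33% of all genes called higher and 5.41% lower. Without Control 2 the adjusted p of Fosb was 0.0528 in edgeR. Nearest below the threshold were Jund at 0.43 ± 0.15 (SE; adjusted p = 0.0557 in edgeR), Fosl2 at -0.87 ± 0.32 (0.0844) and Fos at 0.96 ± 0.44 (0.174). Fosl2 and Fos did not overlap Control, as held for 40% of all genes. DESeq2, which called 3599 of all genes here, called Jund (adjusted p = 0.0319) and Fosl2 (0.0266) in addition to Fosb. Jun and Junb had intervals of -0.08 to 0.51 and -0.14 to 0.38 on the log2 scale. The 4 comparisons with Control share its 3 libraries, so the value of Fosb in O+C is no independent check of that in O&C.

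**Figure D2:**
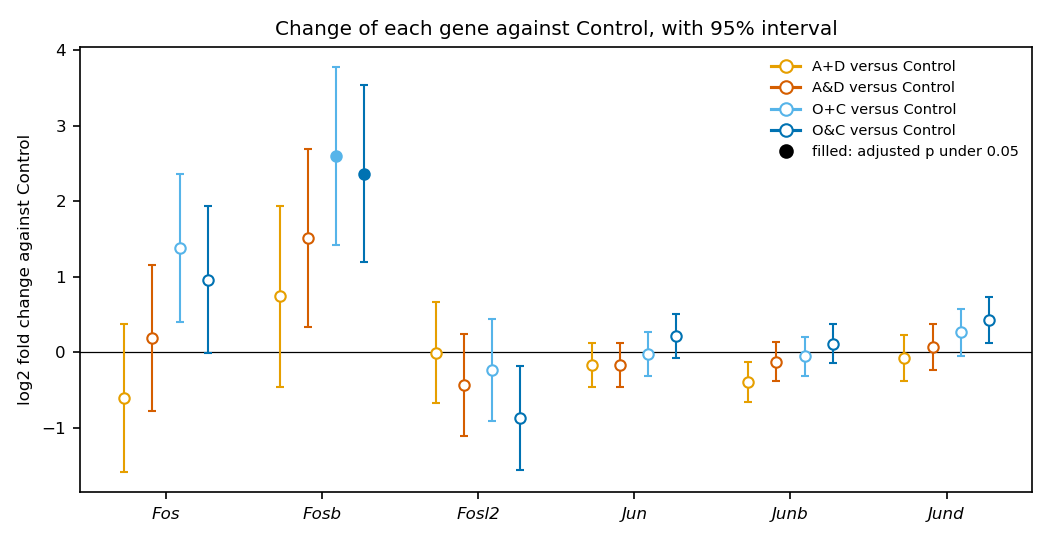
Log2 fold change of each gene against Control in the 4 odour groups, with 95% intervals from the edgeR model; filled points have an adjusted p under 0.05. Only the Fosb points of O+C and O&C are filled, at 2.60 and 2.37, and the intervals of the 3 Jun genes are much narrower than those of Fos and Fosb.

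The manner of delivery was compared within each pair of odorants. Between A+D and A&D, edgeR called 0 of the 6 genes, 1 had an unadjusted p under 0.05 (Junb, -0.27 ± 0.12 SE on the log2 scale, adjusted p = 0.994), and DESeq2 called 0. Of all genes, 0% were called higher in A+D and 0.120% lower, 752 had an unadjusted p under 0.05, and DESeq2 called 43. Fos did not overlap between these groups, as 7.12% of all genes did not. Its difference was -0.79 on the log2 scale, with an interval from -1.78 to 0.19. Fosb had a difference of -0.78 with an interval from -1.91 to 0.36. Leaving out A+D 2 gave -2.07 for Fosb (adjusted p = 0.0152 in edgeR), a value that passed the threshold.

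Between O+C and O&C, 0 of the 6 genes were called by edgeR or DESeq2 and 0 had an unadjusted p under 0.05. Over all genes edgeR called 0% higher and 0% lower, 766 had an unadjusted p under 0.05, and DESeq2 called 9. The intervals on the log2 scale were -0.54 to 1.38 for Fos, -0.82 to 1.29 for Fosb and -0.06 to 1.32 for Fosl2, so a difference of 1 lies inside the interval of each of these 3 genes. For Jun the interval was -0.53 to 0.06, for Junb -0.43 to 0.09 and for Jund -0.47 to 0.14. The difference of delivery between the pairs of odorants, as an interaction, was called for 0 of 6 genes by edgeR and by DESeq2, with 0 at an unadjusted p under 0.05. Of all genes 0% were called higher and 0.0104% lower in it, 517 had an unadjusted p under 0.05, and DESeq2 called 8. Fos had the largest interaction, -1.21 ± 0.63 (SE; 95% interval -2.59 to 0.16).

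The odorant pairs were then set against each other, with 6 libraries a side and no Control. Fos, Fosb, Junb and Jund were lower after acetophenone and decanal, 4 calls of 6, where 9.03% of all genes were called lower and 6.74% higher. Fos had a log2 difference of -1.38 ± 0.32 (SE; adjusted p = 0.0152 in edgeR), or 2.60-fold more after octanal and cis-3-hexenol. Fosb differed by -1.35 ± 0.36 (SE; adjusted p = 0.0242 in edgeR), or 2.55-fold, without overlap in 6 against 6 libraries, as held for 7.92% of all genes. The Jun genes differed by less: -0.29 ± 0.09 for Junb (SE; adjusted p = 0.0344 in edgeR), -0.35 ± 0.10 for Jund (0.0298) and -0.27 ± 0.10 for Jun (0.0728, not called). DESeq2 called 5 of the 6 genes, Jun (adjusted p = 0.0448) among them, and 3860 of all genes. Fosl2 had a difference of 0.33 with an interval from -0.15 to 0.81.

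Some of these calls rested on single libraries. Fosb lost its call without A&D 3 (adjusted p = 0.0522 in edgeR) or O+C 1 (0.0519), and without A+D 2 its difference grew to -2.01. Junb lost it when any of A+D 3, A&D 2, O+C 2, O+C 3, O&C 1 or O&C 3 was left out, with adjusted p up to 0.0788 in edgeR. Jund lost it without A&D 1, O+C 1 or O&C 1, with adjusted p up to 0.0936. Fos kept its call with each of the 12 libraries of these groups left out. Without the 5 libraries low in gland transcripts, O&C 2 was the only O&C library left. The differences were then -1.39 for Fos, -1.91 for Fosb, -0.18 for Junb and -0.16 for Jund.

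Fos and Fosb did not keep a fixed ratio. For every 100 CPM of Fos there were 7.11, 3.18 and 7.40 CPM of Fosb in the Control libraries, and 16.9, 12.9 and 13.3 CPM in O&C, without overlap. In O+C the values were 39.3, 9.58 and 8.65, so O+C 1 combined a high Fosb with a Fos level like that of Control. A+D 2 had 22.3 where A+D 1 and A+D 3 had 4.53 and 9.07, and the A&D libraries had 19.1, 12.9 and 10.3. These ratios are a description with no test.

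**Figure D3:**
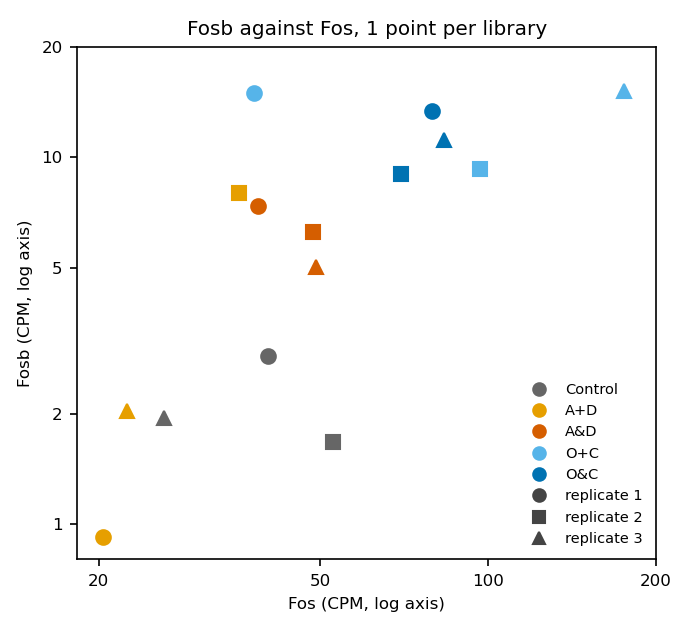
Fosb against Fos in CPM, both on log axes, 1 point per library with colour for the group and symbol for the replicate. Most libraries run from low to high in both genes; O+C 1 at 38.1 CPM of Fos and 14.9 CPM of Fosb, and A+D 2 at 35.7 and 7.97 CPM, lie above the rest for their Fos level.

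Over the 15 libraries the log2 CPM of Fos and Fosb had a correlation of 0.72, and Jun and Jund one of 0.87. The libraries share the 5 groups, so deviations from the group means were also used. Jun and Jund then had a correlation of 0.92 and Fos and Fosb one of 0.25, while Fosb and Fosl2 went from -0.07 to 0.81. A+D 2 is high in both Fosb and Fosl2. These are descriptions over libraries that also share scaling, with no p.

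For each gene the transcripts most like it were sought by Pearson correlation of log2 CPM over the 15 libraries, among 17802 tested genes with a symbol that are neither members nor odorant receptors. The nearest to Fos was Egr1, another immediate early transcription factor, at 0.92. Egr1 had means of 112 CPM in O+C and 116 in O&C, against 59.0 in Control, and 42.6 and 63.1 in the acetophenone groups. Its libraries ran from 38.3 to 177 CPM, and edgeR did not call it against Control in any odour group. Rasd1 (0.85) and Sorbs2 (0.84) came next. Fosb was followed most closely by Sdc3, a heparan sulfate proteoglycan of neurons, at 0.90, and by Adam23 (0.89) and Gm11767 (0.88). The means of Sdc3 were 103 CPM in Control, 161 in O+C and 170 in O&C.

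Fosl2 had Gna13 (a G protein alpha subunit, 0.94), Ppp1r12b (0.93) and Pdgfb (a growth factor of vessels, 0.91) as its nearest genes. Like Fosl2, these genes were highest in A+D 2, the library that stood apart. Jun had Mcat (0.96), Arl2bp (0.92) and Mto1 (0.92), and Jund had Arf6 (0.97), Dapk3 (0.96) and Irf2bp1 (0.94). The lowest values of Jun, Mcat, Arl2bp and Mto1 came from A+D 2, as did those of Jund, Dapk3 and Irf2bp1. Correlations without that library were not computed. Junb had the loosest matches: AC147229.1 at 0.85, on only 4 to 25 counts per library, Rspo1 at 0.83 and Btg1 at 0.82. For Jun and Mcat the correlation of the deviations from the group means was 0.97, against 0.83 for Fos and Egr1. Counts of Arf6, Sorbs2 and Mto1 were whole in only 2, 7 and 6 libraries, so these genes are taken to share reads.

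Among relatives of the 6 genes that also carry the basic leucine zipper, all 14 were tested: 1 rose in O+C, where 5.74% of all genes did, and 2 in O&C, where 9.33% did, with 0 higher or lower in A+D or A&D by edgeR, where 4 had an unadjusted p under 0.05 in each. Of all 19229 genes, 2631 in A+D, 2286 in A&D and 4469 in O+C had an unadjusted p under 0.05. These numbers also stand beside the unadjusted counts of the lists below. The median log2 fold change of the 14 was 0.00 in O+C and -0.07 in O&C, beside -0.01 and -0.04 over all genes. Maff, a small Maf protein that lacks an activating domain, went from a mean of 10.1 CPM in Control to 24.2 in O+C and 29.0 in O&C. Its log2 fold changes were 1.25 ± 0.21 (SE; adjusted p = 0.00170 in edgeR) and 1.52 ± 0.21 (0.000159). Fosl1, the remaining Fos family gene, rose in O&C by 1.67 ± 0.50 (SE; adjusted p = 0.0323 in edgeR) from a mean of 0.862 CPM to 2.75. Both genes are uncertain, since their counts were not whole in any of 15 libraries, and Fosl1 had only 6 to 96 counts.

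Among kinases and factors that act upstream of Fos and Jun, 21 of 22 genes were tested. None passed in A+D or A&D by edgeR (3 with an unadjusted p under 0.05 in each), 1 rose in O+C (5.74% of all genes) and 3 rose in O&C (9.33% of all genes), and none fell. The median of the 21 was 0.11 in O+C and 0.06 in O&C. Mapk10, a neuronal Jun kinase, rose in both, by 0.58 ± 0.10 in O+C (SE; adjusted p = 0.00180 in edgeR) and 0.68 ± 0.10 in O&C (0.000217). In O&C the Jun kinase Mapk9 rose by 0.57 and Map2k2, a MAP kinase kinase, by 0.46, with adjusted p of 0.0131 and 0.00604 in edgeR. Counts of Mapk9 and Map2k2 were whole in only 3 and 4 libraries.

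Of 12 genes for the turnover of AP-1 transcripts and proteins, all tested, 1 rose and 1 fell in O&C, near the 9.33% and 5.41% over all genes. None passed against Control in the other 3 groups by edgeR, where 2 (A+D), 0 (A&D) and 2 (O+C) had an unadjusted p under 0.05. The gene that fell was Zfp36, whose protein binds AU-rich elements of short-lived transcripts such as that of Fos and speeds their decay. Its mean went from 32.3 CPM in Control to 21.9 in O&C, a log2 fold change of -0.56 ± 0.15 (SE; adjusted p = 0.0156 in edgeR). Khsrp, another decay factor for such transcripts, rose by 0.39 ± 0.11 (SE; adjusted p = 0.0235 in edgeR).

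Of 24 commonly reported AP-1 target genes, 19 were tested; Mmp3, Mmp10, Plau, Il6 and Pdyn had too few counts. The counts that fell and rose were 7 and 1 for O&C, 3 and 0 for O+C, 0 and 1 for A&D, and 1 and 0 for A+D. Over all genes 5.41% fell and 9.33% rose in O&C, and 2.35% fell and 5.74% rose in O+C. The median of the 19 was -0.37 in O+C and -0.30 in O&C. Mmp13, a collagenase, had a mean of 367 CPM in Control and lower means elsewhere: 206 in O&C, 208 in A+D, 237 in A&D and 259 in O+C. It fell in A+D (-0.82, adjusted p = 0.0181 in edgeR), O+C (-0.50, 0.0489) and O&C (-0.83, 0.00148). Spp1, which encodes osteopontin and is made by bone, macrophages and other cells, fell by 0.60 in O+C (adjusted p = 0.00679 in edgeR) and by 0.67 in O&C (0.00154), with whole counts in 6 libraries. Hmox1, a heme-degrading enzyme, fell by 0.50 in O&C (adjusted p = 0.0111). Nqo1, a quinone reductase better known as a target of NRF2, rose by 1.20 ± 0.23 in A&D (SE; adjusted p = 0.0126 in edgeR) and by 0.90 ± 0.23 in O&C (0.0144).

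Other immediate early genes, 28 in number, were all tested. In A+D edgeR called 0 (6 with an unadjusted p under 0.05), and A&D had 1 higher; O+C had 6 higher and 0 lower, and O&C had 7 higher and 3 lower. The shares over all genes were 5.74% and 2.35% in O+C and 9.33% and 5.41% in O&C. The median was 0.22 in both O+C and O&C. Nr4a1, an orphan nuclear receptor, had means of 245 CPM in O+C and 185 in O&C, against 37.5 in Control, and 80.4 in A&D where A+D had 37.6. Its log2 fold change was 2.705 ± 0.16 in O+C (SE; adjusted p = 1.52e-08 in edgeR), against 2.60 ± 0.55 for Fosb. Nr4a1 was also lower in A+D than in A&D, by 1.09 (adjusted p = 0.00243), and its interaction was -1.50 ± 0.21 (SE; adjusted p = 0.0115 in edgeR).

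Egr4, a zinc finger factor, rose by 2.11 ± 0.37 in O+C (SE; adjusted p = 0.00219 in edgeR) and 1.98 ± 0.37 in O&C (0.00186), from 0.636 CPM in Control. Dusp1, a phosphatase that switches off MAP kinases, rose by 0.45 and 0.82 in these groups (adjusted p = 0.0351 and 0.000387). Ier2 rose by 0.44 and 0.67 (adjusted p = 0.0327 and 0.00154).

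**Figure D4:**
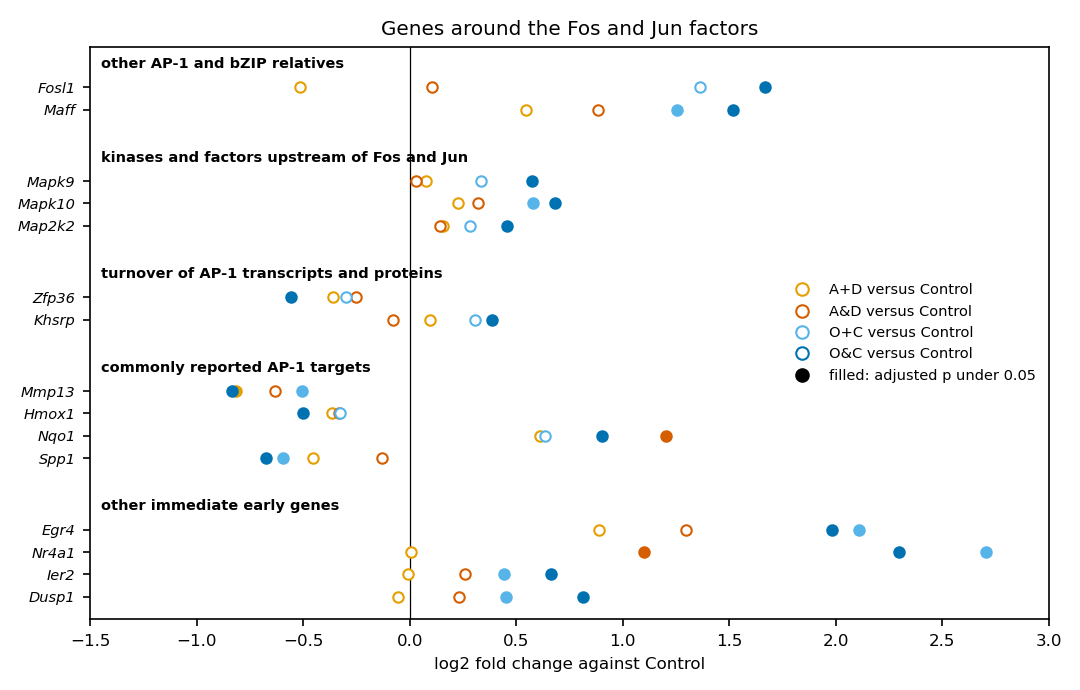
Log2 fold change against Control of the called genes named from each list, with filled points at an adjusted p under 0.05. The immediate early genes shown, Maff and the kinases lie to the right of 0 in O+C and O&C. Mmp13, Hmox1 and Spp1 lie to the left of 0 in all 4 groups. The 3 immediate early genes called lower in O&C are not drawn.

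In the comparison of the odorant pairs, the acetophenone and decanal libraries had lower values for 4 of the 14 relatives, 7 of the 21 upstream genes, 1 of the 12 turnover genes and 8 of the 28 other immediate early genes. Over all genes 9.03% were lower, so the turnover genes were about at that share. Higher calls numbered 0, 0, 0 and 1, and the targets had 3 higher and 1 lower of 19, beside 6.74% of all genes higher.

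Markers of cell types moved with these results. All 12 markers of mature olfactory sensory neurons rose in O+C and in O&C, with medians of 0.78 and 0.94 on the log2 scale. Their summed level was 8345 to 9455 CPM in Control, and it reached 14071 to 19229 in O&C and 13775 to 17006 in O+C, with 12104 to 15048 in A&D and 9909 to 11914 in A+D. None of these markers was at 0 in any group. Between the odorant pairs 10 of the 12 were lower after acetophenone and decanal. Of 12 myeloid and other immune markers, 6 fell in O+C and 8 in O&C, with summed levels of 1089 to 1542 CPM in Control, 680 to 722 in O+C and 621 to 828 in O&C and none at 0. All 5 red blood cell markers fell in O&C, from 18034 to 28668 CPM summed in Control to 10142 to 14328, none at 0. Of 6 markers of sustentacular cells, the supporting cells of the epithelium, 2 fell in O+C and 3 in O&C, with summed levels of 2549 to 3022 CPM in Control, 1763 to 2099 in O+C and 1781 to 2119 in O&C and none at 0. Of 6 respiratory ciliated cell markers 2 and 3 fell, from 453 to 555 CPM summed in Control to 408 to 423 in O+C and 377 to 391 in O&C, none at 0. Set against octanal and cis-3-hexenol, 7 of the 12 immune and 4 of the 5 red blood cell markers were higher after acetophenone and decanal. So were 3 of the 6 ciliated cell and 2 of the 6 sustentacular markers, beside 6.74% of all genes. None of the markers in these lists was lower. Each of the other 8 marker lists had at most 1 call in O+C and in O&C against Control. Between the odorant pairs some of them had more. Of 6 immature neuron markers, 3 were higher after acetophenone and decanal and 1 was lower. Of 8 endothelial and stromal markers 2 were higher, and of 7 heat shock genes 1 was higher and 1 lower. The rest of these lists had at most 1 call there. The part of all these markers in the differences of the Fos and Jun genes and of the AP-1 targets was not tested.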

How the data were processed

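The deposited table holds the authors' expected counts (estimates, not always whole) per gene, unscaled. Reads were processed with STAR 2.7.10b, Salmon 1.10.1 and R 4.4.2 on GRCm39, per the submitters' processing notes; the annotation and the strand setting are not given in the sources used here. Values were rounded to whole numbers, and 52029 identifiers were matched to a symbol. A value within 0.0005 of a whole number was called whole.

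Genes were kept by filterByExpr (minimum count 10) and library sizes scaled by TMM. Tests used edgeR 4.0.16 in R 4.3.3: a robust quasi-likelihood F test with 1 mean per group over all 15 libraries, 8 comparisons, two-sided, Benjamini-Hochberg over 19229 genes, threshold 0.05. The SE is |log2 fold change| over the square root of F, and intervals cover 95%. P-values measure the spread between these libraries. The pipeline was tested on counts simulated with the same dispersion for every gene, which does not cover genes as variable as Fos and Fosb. Alternatives were DESeq2 1.42.0, other scaling and filtering, a non-robust fit, a replicate block, a gland covariate, 2 groups only and libraries left out.

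Genes named beyond the 6 were the 3 most alike per gene and up to 4 called genes per list, by smallest adjusted p. The 6 genes, the 5 pathway lists and the 13 marker lists were chosen with earlier results of these data known. In the list of upstream genes, 1 gene is not reported here.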

Additional observations from a re-analysis of the deposited data

How the results depend on the processing

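Scaling by RLE size factors changed no call or direction. The number of the 6 genes called moved in other settings, with the cause not tested. Without the filter on low counts it was 4 for O&C, 2 for O+C and 1 for A&D and for A+D against Control. It was 1 for A+D against A&D and for the interaction. Over all genes the fit without the filter called 3408 in O&C, 2160 in O+C, 610 in A&D and 885 in A+D against Control. The main fit called 2834, 1555, 197 and 62 in these, 23 between A+D and A&D, 2 in the interaction and 3032 between odorant pairs. The fit without the filter gave much smaller p-values (adjusted p = 7.1e-20 for Fos in O+C, edgeR). DESeq2 called 3 in O&C (3599 over all genes), 2 in O+C (2254) and 5 rather than 4 between odorant pairs (3860). The non-robust fit called 2 in O+C (1530 over all genes) and the gland covariate 2 in O&C (3185). The fits of 2 groups alone called 4 in O&C (4664 over all genes) and 1 in A&D (368). With the replicate block 2 were called in O&C (Jund, adjusted p = 0.0440 in edgeR), and calls over all genes there went from 2834 to 2338. The replicate numbers do not pair the libraries: 3 of 30 same-number pairs had a correlation of deviations over 0.1, and 1 of 15 libraries was closest to its own number.

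Signs turned only for values that were not called. The gland covariate turned Junb in O+C (0.0098) and Jund in the interaction (-0.012), and the fit of 2 groups alone turned Jun between A+D and A&D (0.0026). Leaving out the 5 libraries low in gland transcripts was chosen with earlier results known. It left O&C 2 as the only O&C library, so every value that involves O&C rests on that library there. It turned Fosb (-0.30), Jun (0.0050) and Jund (0.10) in A+D, Jun (0.00027) in O+C and Junb (-0.16) in O&C. It also turned Fosl2 (-0.083) and Jun (0.13) between A+D and A&D, Junb (0.10) and Jund (0.088) between O+C and O&C, and Jund (-0.14) in the interaction.

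With each library left out in turn, 0 to 2 genes were called in O+C and in O&C, 0 to 1 between A+D and A&D, and 2 to 5 between odorant pairs. Over all genes these fits called 542 to 1206 in O+C and 1274 to 2284 in O&C against Control. Ranges of log2 fold change that crossed 0 were -0.55 to 1.20 for Fosb, -0.60 to 0.29 for Fosl2 and -0.15 to 0.021 for Jund in A+D, -0.036 to 0.45 for Fos in A&D, and -0.100 to 0.036 for Jun and -0.11 to 0.0021 for Junb in O+C. Between A+D and A&D they were -0.16 to 0.73 for Fosl2 and -0.11 to 0.14 for Jun, and between O+C and O&C -0.19 to 0.81 for Fos. In the interaction they were -0.78 to 0.10 for Fosl2, -0.22 to 0.024 for Junb and -0.13 to 0.17 for Jund. Depth limits AC147229.1, Fosl1, Egr4 and Fosb, with 4, 6, 10 and 22 counts in the poorest library.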
